A study of Mus musculus with 6 samples.

Results

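Cytochrome c and cytochrome c oxidase have isoforms that are made mainly in 1 tissue, and 7 genes of such isoforms were examined in mouse oocytes: Cyct, Cox8c, Cox6b2 and Cox7b2, the testis forms, Cox7a1 and Cox6a2, the heart and muscle forms, and Cox4i2, the lung form. They were chosen by name together with their difference between Brwd1 mutant and wildtype oocytes in these same arrays, so that difference is described here and not tested. All 7 had a probe set that the array annotation assigns to 1 gene, exactly 1 each, out of 19938 genes with such a probe set. Oocytes at the germinal vesicle stage, which are arrested before the meiotic divisions, came from B6/C3H mice that were wildtype or homozygous for a Brwd1 mutation. The allele of the mutation is not described in the labels. The mice were females aged 2 to 6 months that had received 5 IU of equine chorionic gonadotropin 44 h before collection, in both groups. Each group had 3 samples, each a pool of 100 oocytes on its own array, and since no label ties the pools to separate animals, p-values measure the spread between these samples only, which may be technical.

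Cytochrome c is a small heme protein that carries electrons in the space between the mitochondrial membranes, from complex III to cytochrome c oxidase, also called complex IV, which passes them to oxygen. The catalytic core of complex IV is encoded by mitochondrial DNA, and the surrounding subunits by nuclear genes. For several nuclear subunits a gene active in most tissues has a paralog with restricted use: Cycs has Cyct, Cox8a has Cox8c, Cox7a2 has Cox7a1, Cox6b1 has Cox6b2, Cox4i1 has Cox4i2, Cox6a1 has Cox6a2 and Cox7b has Cox7b2. Cytochrome c released from mitochondria also starts apoptosis by binding Apaf1.

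The stretches around the gene starts show how a tissue isoform and its partner can differ in regulatory sequence. RefSeq promoter sequences of build GRCm38.p6, from 250 bases before to 50 after the start, were matched for 4 of the 7 tissue isoforms (Cyct, Cox7a1, Cox6b2 and Cox7b2) and 6 of the 7 partners. The 2 tissue isoforms with the lowest mutant values relative to wildtype are shown with their partners, on the strand of the gene and 5′ to 3′. Capitals mark matches on either strand to CCAAT (the CCAAT box), TGACGTCA (the cyclic AMP response element), GCATGCGC (the core of the NRF1 motif), GGGCGG (the GC box) and CAGCTG (an E-box). Cyct lies at chr2:76360404-76360703 (minus strand), Cycs at chr6:50566520-50566819 (minus strand), Cox7a1 at chr7:30183921-30184220 (plus strand) and Cox7a2 at chr9:79759804-79760103 (minus strand).
Cyct: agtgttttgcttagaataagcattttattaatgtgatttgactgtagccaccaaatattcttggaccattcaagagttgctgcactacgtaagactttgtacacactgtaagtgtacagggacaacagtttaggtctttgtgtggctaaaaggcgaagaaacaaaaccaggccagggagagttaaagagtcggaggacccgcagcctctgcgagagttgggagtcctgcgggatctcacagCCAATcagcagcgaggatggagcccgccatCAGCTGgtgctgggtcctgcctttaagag
Cycs: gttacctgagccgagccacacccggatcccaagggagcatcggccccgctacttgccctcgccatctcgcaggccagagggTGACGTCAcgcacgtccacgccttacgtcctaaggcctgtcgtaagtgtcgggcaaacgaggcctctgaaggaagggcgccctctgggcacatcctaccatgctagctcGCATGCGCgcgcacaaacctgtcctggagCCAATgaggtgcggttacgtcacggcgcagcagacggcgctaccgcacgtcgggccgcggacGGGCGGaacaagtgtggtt
Cox7a1: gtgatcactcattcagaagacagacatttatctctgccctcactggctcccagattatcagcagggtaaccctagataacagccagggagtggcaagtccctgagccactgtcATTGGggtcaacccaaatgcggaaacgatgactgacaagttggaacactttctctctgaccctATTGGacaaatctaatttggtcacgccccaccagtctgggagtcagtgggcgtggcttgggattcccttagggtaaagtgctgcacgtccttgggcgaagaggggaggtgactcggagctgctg
Cox7a2: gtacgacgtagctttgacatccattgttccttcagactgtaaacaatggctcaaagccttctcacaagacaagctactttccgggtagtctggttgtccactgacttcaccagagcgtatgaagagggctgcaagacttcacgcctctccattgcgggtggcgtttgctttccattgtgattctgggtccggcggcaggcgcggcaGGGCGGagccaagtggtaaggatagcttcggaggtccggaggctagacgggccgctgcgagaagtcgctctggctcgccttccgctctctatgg

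The Cycs stretch held a CCAAT box at position -31 from the start, 1 cyclic AMP response element, 1 NRF1 core and 1 GC box, while Cyct held a CCAAT box at -9 and an E-box at 22. Cox7a1 held 2 CCAAT boxes and Cox7a2 a GC box. NRF1, a transcription factor of nuclear genes for respiration, had its core in 2 of the 6 partner stretches (Cycs and Cox6a1), in 0 of the 4 tissue isoform stretches and in 2.71% of all 32851 promoter sequences. The cyclic AMP response element was in 1 of the 6, 0 of the 4 and 1.79%, and the CCAAT box in 5 of the 6, 4 of the 4 and 37.4%. The GC box was in 3 of the 6, 2 of the 4 and 35.7%, and the E-box in 0 of the 6, 1 of the 4 and 16.3%. CpG pairs numbered 7 to 10 in the tissue isoform stretches and 5 to 32 in the partner stretches. In Cox6a1 the 2 matches to the NRF1 core overlapped each other on opposite strands. A match describes letters only, and none of the arrays measured binding.

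Levels were read as the deposited log2 values of the Affymetrix arrays, where a difference of 1 is a doubling relative to the other transcripts. Brwd1 itself was at 8.91, 9.08 and 8.98 in wildtype 1, 2 and 3 and at 4.41, 4.56 and 4.50 in mutant 1, 2 and 3. Across probe sets, arrays of the same genotype correlated at 0.994 to 0.995 (Pearson's r) and arrays of different genotypes at 0.992 to 0.993. As a guide to background, the 95th percentile of 1212 olfactory and vomeronasal receptor probe sets was 4.48 and their median 3.13. All 13 oocyte markers (Zp1, Zp2, Zp3, Gdf9 and Bmp15 among them) were above the guide in both groups. Over 23410 probe sets with a gene symbol, limma called 32 at a Benjamini-Hochberg adjusted p under 0.05, which is 0.137%, 9 higher and 23 lower in the mutant. After median centring it called 6 higher and 30 lower. The count was 1 without wildtype 1, without wildtype 2 or without mutant 1, 1 with the replicate number as a block, 15 genes on the means of probe sets and 76 with trend and robust eBayes.

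Of the 7 tissue isoforms, 5 had groups that did not overlap, 4 of them lower and 1 higher in the mutant, and the other 2 overlapped. Over all probe sets the groups did not overlap with the mutant lower at 9.66% and with the mutant higher at 10.1%, together 19.7%. Since the genes were chosen on this contrast, nothing is read from the count. The 7 differences ran from -0.77 to 0.73 on the log2 scale, with a median of -0.19, where the median over all probe sets was 0.010. The 2 lowest differences were those of a muscle form, Cox7a1, and a testis form, Cyct, and the highest was that of another testis form, Cox8c.

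**Figure D1:**
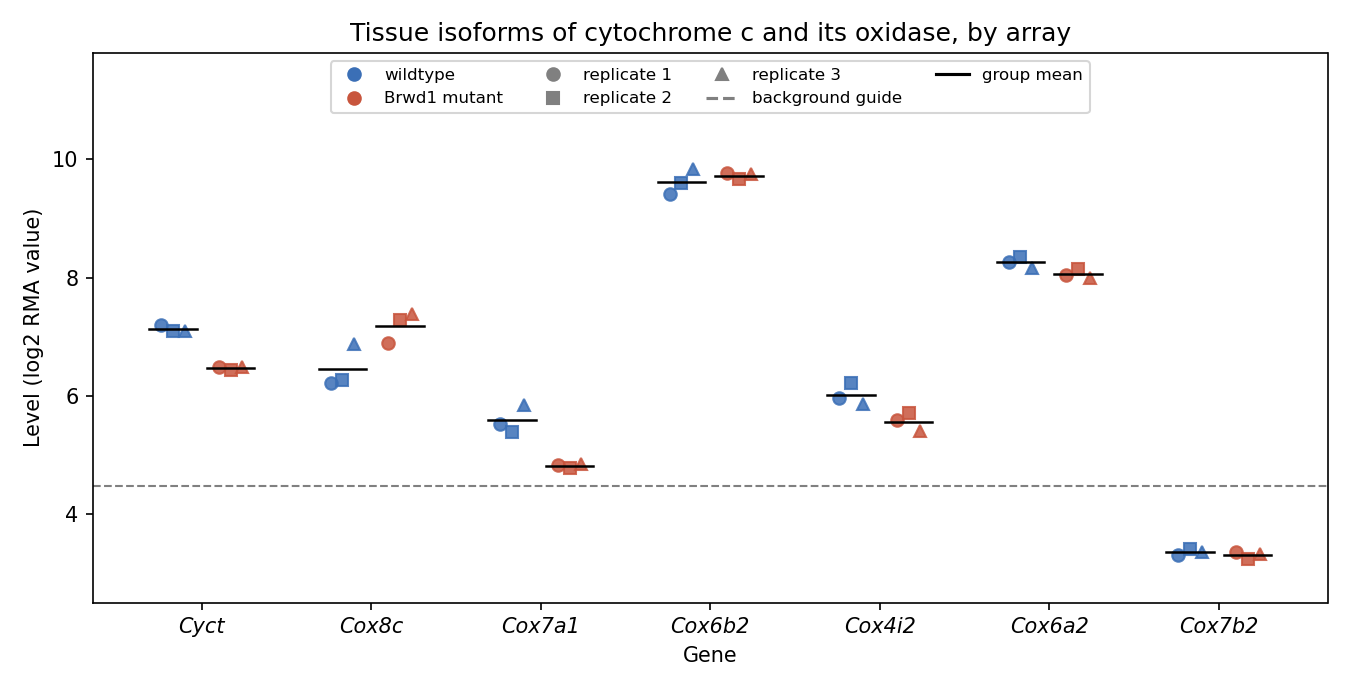
Levels of the 7 tissue isoforms as deposited log2 values (vertical axis) by gene (horizontal axis), with wildtype arrays in blue and Brwd1 mutant arrays in red, the replicate number as the symbol, group means as black bars and the background guide of 4.48 as a dashed line. Cyct, Cox7a1, Cox4i2 and Cox6a2 lie lower in the mutant arrays and Cox8c higher, while Cox6b2 and Cox7b2 overlap.

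Cyct, the cytochrome c of spermatogenic cells, was at 7.19, 7.10 and 7.10 in wildtype 1, 2 and 3 and 6.49, 6.43 and 6.49 in mutant 1, 2 and 3. The wildtype arrays were all high and the mutant arrays all low, with 0.61 between the nearest arrays of the groups. The means were 7.13 ± 0.052 and 6.47 ± 0.035 (SD, n = 3 per group), which differ by -0.66 or 1.58-fold. Its spread was below the median SD of probe sets between the guide and a level of 7, which was 0.12 in both groups. After median centring the difference was -0.72, and leaving out any 1 array gave -0.68 to -0.63.

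Cox8c, the testis form of the small subunit VIII of complex IV, was at 6.22, 6.26 and 6.87 in wildtype 1, 2 and 3 and 6.89, 7.28 and 7.38 in mutant 1, 2 and 3. Wildtype 3 stood with mutant 1, 0.020 below it, so the groups were apart by the last deposited decimals only. The means were 6.45 ± 0.36 and 7.18 ± 0.26 (SD, n = 3 per group), which differ by 0.73 or 1.66-fold. It was the tissue isoform with the widest spread in each group. Without wildtype 3 the difference was 0.94, and without wildtype 1 it was 0.62.

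Cox6b2, the testis form of subunit VIb, which lies on the side of complex IV where cytochrome c docks, was at 9.42, 9.60 and 9.84 in wildtype 1, 2 and 3 and 9.77, 9.66 and 9.75 in mutant 1, 2 and 3. The mutant arrays fell inside the wildtype range. The means were 9.62 ± 0.21 and 9.73 ± 0.059 (SD, n = 3 per group), a difference of 0.11 that was 0.22 without wildtype 3 and 0.0067 without wildtype 1.

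Cox7b2, the testis form of subunit VIIb, was at 3.30, 3.41 and 3.35 in wildtype 1, 2 and 3 and 3.36, 3.23 and 3.32 in mutant 1, 2 and 3. All 6 arrays were below the guide of 4.48 and near the median of the receptor probe sets, so no level above background was measured for it in either group. Its difference was -0.050.

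Cox7a1, the heart and muscle form of subunit VIIa, was at 5.53, 5.38 and 5.85 in wildtype 1, 2 and 3 and 4.83, 4.77 and 4.85 in mutant 1, 2 and 3. The mutant arrays were low and close together, 0.53 or more below every wildtype array. The means were 5.59 ± 0.24 and 4.82 ± 0.042 (SD, n = 3 per group), which differ by -0.77 or 1.71-fold. The mutant mean was close to the guide, where the arrays compress differences. The difference ran from -0.87 to -0.64 when 1 array was left out, and it was smallest without wildtype 3.

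Cox6a2, the heart and muscle form of subunit VIa, was at 8.26, 8.34 and 8.17 in wildtype 1, 2 and 3 and 8.04, 8.15 and 8.0 in mutant 1, 2 and 3. The highest mutant array was 0.020 below the lowest wildtype array. The means were 8.26 ± 0.085 and 8.06 ± 0.078 (SD, n = 3 per group), -0.19 apart on the log2 scale or 1.14-fold.

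Cox4i2, the lung form of subunit IV, whose gene responds to oxygen, was at 5.96, 6.21 and 5.86 in wildtype 1, 2 and 3 and 5.59, 5.70 and 5.40 in mutant 1, 2 and 3. Every mutant array was below every wildtype array, by at least 0.16. The means were 6.01 ± 0.18 and 5.56 ± 0.15 (SD, n = 3 per group), -0.45 apart on the log2 scale or 1.36-fold, and it ran from -0.52 to -0.35 when 1 array was left out. The gene span of Bcl2l1, an inhibitor of apoptosis, overlaps that of Cox4i2, and its difference was 0 (limma, adjusted p = 1).

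The common partners played no part in the choice and were tested. Limma called 0 of 7, where it called 0.137% of all probe sets. An unadjusted p under 0.05 was found for 0 of 7, and for 14.7% of all probe sets. Their groups overlapped in all 7, and their differences had sizes of 0.010 to 0.087 with a median of 0.027, while the sizes of the tissue isoforms' differences were 0.050 to 0.77 with a median of 0.45. The contrast between the sets was not tested, because the tissue isoforms were chosen by name together with their difference in these same arrays. All 7 partners had levels above 7, where the median SD of probe sets was 0.081 in the wildtype and 0.080 in the mutant. Cox7a1 and Cox4i2 were between the guide and 7 in both groups, where that median was 0.12 in each group.

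Cycs, the cytochrome c of most tissues, was at 9.79, 9.83 and 9.84 in wildtype 1, 2 and 3 and 9.73, 9.83 and 9.82 in mutant 1, 2 and 3 on its brightest probe set. Its difference was -0.027 (95% confidence interval -0.16 to 0.11; limma, adjusted p = 0.857), and it was 0.0068 after cyclic loess. Another bright Cycs probe set was at -0.020. A dim one was at 3.31, 3.26 and 3.35 in wildtype 1, 2 and 3 and 3.16, 3.92 and 3.14 in mutant 1, 2 and 3, below the guide on every array, with mutant 2 apart from the rest. Cycs has processed copies in the genome, and the array cannot tell signal of near-identical copies apart.

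Cox8a, the partner of Cox8c, was at 9.17, 9.15 and 9.0 in wildtype 1, 2 and 3 and 9.10, 9.24 and 9.02 in mutant 1, 2 and 3. Its difference was 0.013 (95% confidence interval -0.18 to 0.21; limma, adjusted p = 0.953), or -0.043 after median centring. Cox7a2, the partner of Cox7a1, was at 9.97, 9.86 and 9.80 and at 9.88, 9.73 and 9.86, a difference of -0.053 (95% confidence interval -0.23 to 0.12; limma, adjusted p = 0.768).

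Cox4i1, the partner of Cox4i2, was at 10.36, 10.35 and 10.20 in wildtype 1, 2 and 3 and 10.34, 10.27 and 10.27 in mutant 1, 2 and 3. Its difference was -0.010 (95% confidence interval -0.17 to 0.15; limma, adjusted p = 0.957), or 0.022 after cyclic loess. Cox6a1, the partner of Cox6a2, differed by 0.040 (95% confidence interval -0.096 to 0.18; limma, adjusted p = 0.781), or -0.017 after median centring. Cox6b1, the partner of Cox6b2, differed by 0.027 (95% confidence interval -0.097 to 0.15; limma, adjusted p = 0.843), or -0.030 after median centring. Cox7b, the partner of Cox7b2, differed by -0.087 (95% confidence interval -0.25 to 0.075; limma, adjusted p = 0.598), and its dimmer probe set by -0.11. Over the 7 partners the intervals ran from -0.25 at the lowest bound to 0.21 at the highest.

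**Figure D2:**
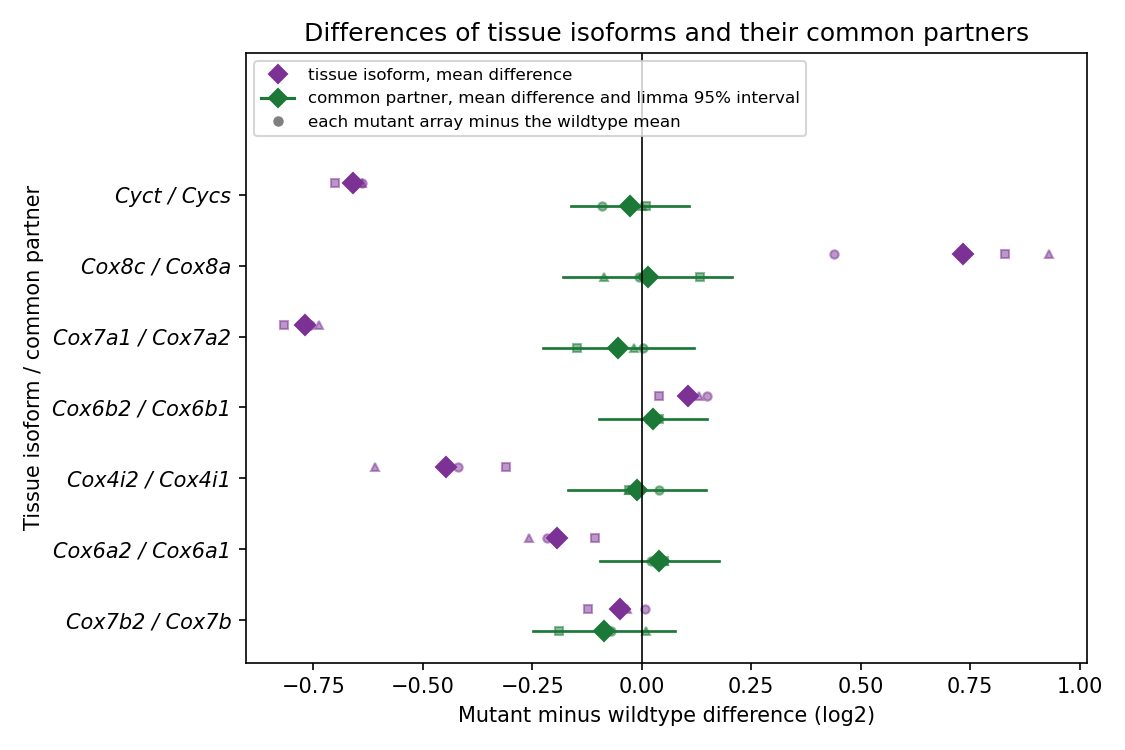
Mutant minus wildtype differences on the log2 scale (horizontal axis) for each tissue isoform and its common partner (vertical axis), with large diamonds for mean differences, small symbols for each mutant array minus the wildtype mean, and lines for the limma 95% confidence intervals of the partners. The 7 partners sit between -0.087 and 0.040, and the tissue isoforms between -0.77 and 0.73.

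The rest of the route from complex III to oxygen gave no calls. Limma called only 0.137% of all probe sets, so 0 calls in lists this short says little. Of 11 measured complex IV subunits made in most tissues, limma called 0, and 0 had an unadjusted p under 0.05 (14.7% over all probe sets). Their median difference was -0.010, with 7 lower and 4 higher. It was 0.013 and 0.022 after quantile normalization and cyclic loess, -0.067 after median centring, -0.040 without wildtype 3 and -0.033 without mutant 1. All 11 had levels above 7, where 64.3% of probe sets were lower and the median difference was -0.043. The smallest p-values after adjustment by limma belonged to Ndufa4, a subunit once assigned to complex I, at -0.12 (adjusted p = 0.419) and Cox5b at -0.10 (adjusted p = 0.588). Cox7c and the 3 mitochondrially encoded subunits had no probe set of their own in the annotation used here.

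Of 22 assembly factors of complex IV, limma called 0 and 2 had an unadjusted p under 0.05 (14.7% over all probe sets). Of the 22, 17 were lower, with a median of -0.095. The median was -0.15 after median centring, and not all of these genes were above a level of 7. Cmc2 was at -0.18 and Surf1, needed to build the catalytic core, at -0.16 (limma, adjusted p = 0.321 and 0.331). Coa3 was at -0.37 and Higd2a at -0.16 (limma, adjusted p = 0.349 and 0.367).

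Of 9 subunits of complex III, limma called 0 and 1 had an unadjusted p under 0.05 (14.7% over all probe sets). It was Cyc1, the cytochrome c1 that hands electrons to cytochrome c, at -0.36 (SE 0.0824; limma, adjusted p = 0.158). Its means were 6.93 ± 0.058 and 6.57 ± 0.14 (SD, n = 3 per group), and its groups did not overlap. Uqcr10 was at -0.17, Uqcrc2 at -0.11 and Uqcrq at -0.10, and the list's median was -0.10 with 5 lower and 4 higher. That median was -0.038 without mutant 3, -0.047 without wildtype 1, -0.063 without mutant 1, -0.066 after cyclic loess and -0.16 after median centring.

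Of 7 genes that make, move or respond to cytochrome c, limma called 0. An unadjusted p under 0.05 (14.7% over all probe sets) was found for 4, 2 in each direction. Hccs, which attaches the heme to cytochrome c, was at 0.15, and Gfer, a sulfhydryl oxidase of the intermembrane space that passes electrons to cytochrome c, at -0.28 (limma, adjusted p = 0.309 and 0.218). Apaf1, the scaffold of the apoptosome, was at -0.37 and Casp9, the protease it activates, at 0.25 (limma, adjusted p = 0.233 and 0.280). The list's median was -0.027, and it ran from -0.15 with the filter at the guide, through -0.083 after median centring, to 0.018 with probe sets averaged by gene, so it had no stable sign.

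Testis and muscle isoforms of further energy genes were read by tissue. Of 15 measured testis isoforms, limma called 0 and 3 had an unadjusted p under 0.05 (14.7% over all probe sets). Pdha2, the testis subunit of pyruvate dehydrogenase, was at -0.49 and the glycerol kinase Gk2 at -0.23, both below the guide in both groups (limma, adjusted p = 0.136 and 0.199). Ldhc, the lactate dehydrogenase of sperm, was at 6.29, 5.85 and 5.72 in wildtype 1, 2 and 3 and 6.43, 6.27 and 6.81 in mutant 1, 2 and 3. Its groups overlapped, and its difference was 0.55 (limma, adjusted p = 0.263). Ldhal6b was at 0.18. The median was 0.053 (-0.0033 after median centring, 0.028 after cyclic loess, 0.027 without wildtype 2 and 0.11 among probe sets above the guide), with 11 higher and 4 lower, and only 3 genes in the wildtype and 5 in the mutant were above the guide.

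Of 15 measured muscle isoforms, limma called 0 and 3 had an unadjusted p under 0.05 (14.7% over all probe sets), all higher. Slc25a4, the muscle and heart carrier of ADP and ATP, was at 0.22 (limma, adjusted p = 0.333). Ampd1 at 0.29, Eno3 at 0.17 and Pygm at 0.13 were below the guide in both groups. The list also held Cox8b, the heart and muscle form of subunit VIII of complex IV, which was below the guide in both groups at a difference of 0.047 (limma, adjusted p = 0.749). The median was 0.11 with 12 higher and 3 lower, and only 6 of the 15 were above the guide in the wildtype. It was 0.042 without wildtype 3, 0.047 among probe sets above the guide, 0.050 after median centring, 0.059 after quantile normalization and 0.056 after cyclic loess. Over all probe sets the median was 0.023 at or under the guide and 0.043 between the guide and a level of 7.

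Cox4i2 responds to hypoxia, and of 19 measured genes of that response and regulators of Cox4i2, limma called 0. An unadjusted p under 0.05 (14.7% over all probe sets) was found for 6, 3 in each direction. Bnip3, a mitophagy receptor, was at -0.35 and the carbonic anhydrase Car9 at -0.26 (limma, adjusted p = 0.122 and 0.193). Cxxc5, known as a repressor of Cox4i2, was at 0.27 and Hk2, a hexokinase, at 0.37 (limma, adjusted p = 0.227 and 0.229). The list's median was -0.027, and it was 0.053 without wildtype 2, 0.0033 without mutant 1, -0.087 without wildtype 1 and -0.083 after median centring.

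**Figure D3:**
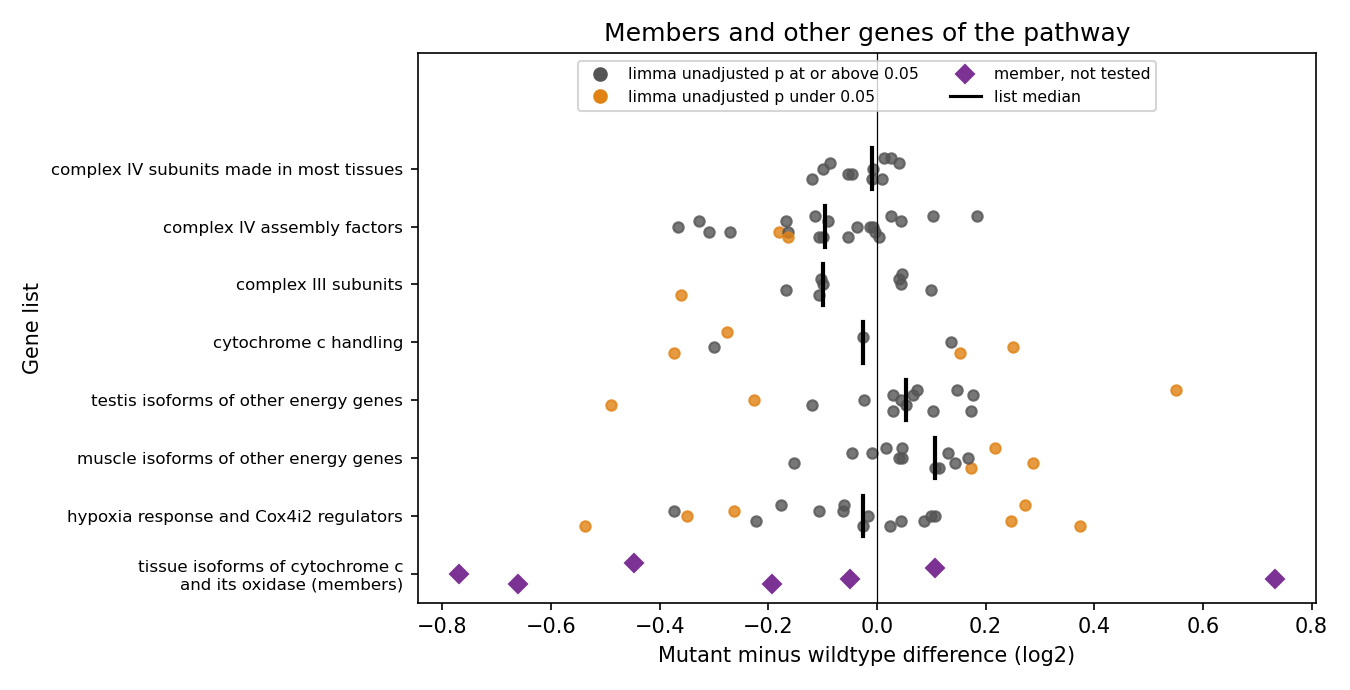
Mutant minus wildtype differences on the log2 scale (horizontal axis) of single genes in 7 lists and of the 7 tissue isoforms (vertical axis), with orange points for a limma unadjusted p under 0.05, purple diamonds for the untested tissue isoforms and black bars for list medians. The list medians lie between -0.10 and 0.11, and 0 genes of the lists passed after adjustment.

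Markers of muscle cells and of other cells that may accompany oocytes were measured on the same arrays. No marker list covered spermatogenic cells. Of 13 smooth muscle and pericyte markers, 5 in the wildtype and 6 in the mutant were above the guide, Acta2, Tagln and Rgs5 were below it in both groups, and limma called 0. The log2 of the list's summed level was 9.06 to 9.13 in the wildtype arrays and 9.16 to 9.22 in the mutant arrays. Without Myh11 (sums without a gene were added after seeing the data), a myosin heavy chain at 0.17 (limma, adjusted p = 0.256), the ranges overlapped, at 8.11 to 8.16 and 8.12 to 8.18. Of 12 striated muscle markers 8 and 7 were above the guide, Myod1 was below it in both, limma called 0, and the summed level was 8.55 to 8.56 and 8.54 to 8.66. In this list 9 markers were higher and 3 lower in the mutant, with a median of 0.052. Mylpf, a myosin light chain, was at -0.39 with groups that did not overlap (limma, adjusted p = 0.152). It was among the 3 lower, as Cox7a1 and Cox6a2 were lower, and its mutant mean of 4.47 was at the guide. The cardiac actin gene Actc1 was at 0.23 (limma, adjusted p = 0.321). The part of these cells in the results was not tested.

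Of 10 blood, immune and endothelial markers, 4 in the wildtype and 6 in the mutant were above the guide, and limma called 0. Their summed level was 8.64 to 8.81 in the wildtype arrays and 8.88 to 9.14 in the mutant arrays. Without C1qb, at 0.90 (limma, adjusted p = 0.162), the ranges overlapped, at 8.43 to 8.48 and 8.45 to 8.75. Of the other macrophage markers, C1qa at 0.18 and Cd68 at -0.070 were above the guide. Lyz2 at 0.0033, Cd74 at 0, Csf1r at 0.19 and the leukocyte marker Ptprc at 0.053 were below the guide in both groups. Of 13 granulosa and cumulus markers 8 and 8 were above the guide, limma called 0, and the summed level was 9.87 to 10.07 and 10.07 to 10.20. The brightest were Nr5a2, with wildtype and mutant means of 8.89 and 9.05, and Gata4, with 7.87 and 8.17. Fshr, Amh, Amhr2, Kitl and Tnfaip6 were below the guide in both groups. An unadjusted p under 0.05 was found for 4 of the 13, 3 higher and 1 lower. The smallest p-values belonged to Gata4 at 0.29 and Ptgs2 at -0.57 (limma, adjusted p = 0.17 and 0.252), and neither had overlapping groups. While 14.7% of all probe sets had an unadjusted p under 0.05, 9 genes did over these 4 lists of other cell types, with 13, 12, 10 and 13 measured. Their part in the Cox8c result was not tested. In pools of oocytes, a change in the number of cells of another type, up or down, and a change in RNA per cell cannot be told apart.

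Patterns over the 6 arrays were compared with those of 11947 other genes above the guide, as the root mean square (RMS) difference between profiles centred on their own means. The nearest genes were picked for likeness, so a shared order of the arrays follows from the choice and nothing is read from it. The patterns nearest to Cyct were those of Igf1r, a growth factor receptor gene, at an RMS of 0.045, and Pcbd1, a cofactor-recycling enzyme, at 0.064. Nearest to Cox8c were Fxyd4, a regulator of the sodium pump, at 0.075 and C1qb, a complement subunit made by macrophages, at 0.11. C1qb was at 5.74, 5.76 and 6.49 in wildtype 1, 2 and 3 and 6.71, 6.92 and 7.06 in mutant 1, 2 and 3.

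Nearest to Cox7a1 were Cyria at 0.082 and the kinase gene Camk1d at 0.11. Cyria was at 8.14, 8.01 and 8.36 in wildtype 1, 2 and 3 and 7.53, 7.51 and 7.59 in mutant 1, 2 and 3. Nearest to Cox4i2 were Rabepk, which binds the vesicle protein Rab9, at 0.050 and Paqr4 at 0.058. Nearest to Cox6a2 were Vars, the valyl-tRNA synthetase, at 0.030 and S100g, a calcium-binding protein, at 0.032. Nearest to Cox6b2 were Maf1, a repressor of RNA polymerase III, at 0.014 and Stk31, a germ cell protein, at 0.036. No gene was nearest to more than 1 tissue isoform, and Cox7b2, below the guide, was not compared.

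**Figure D4:**
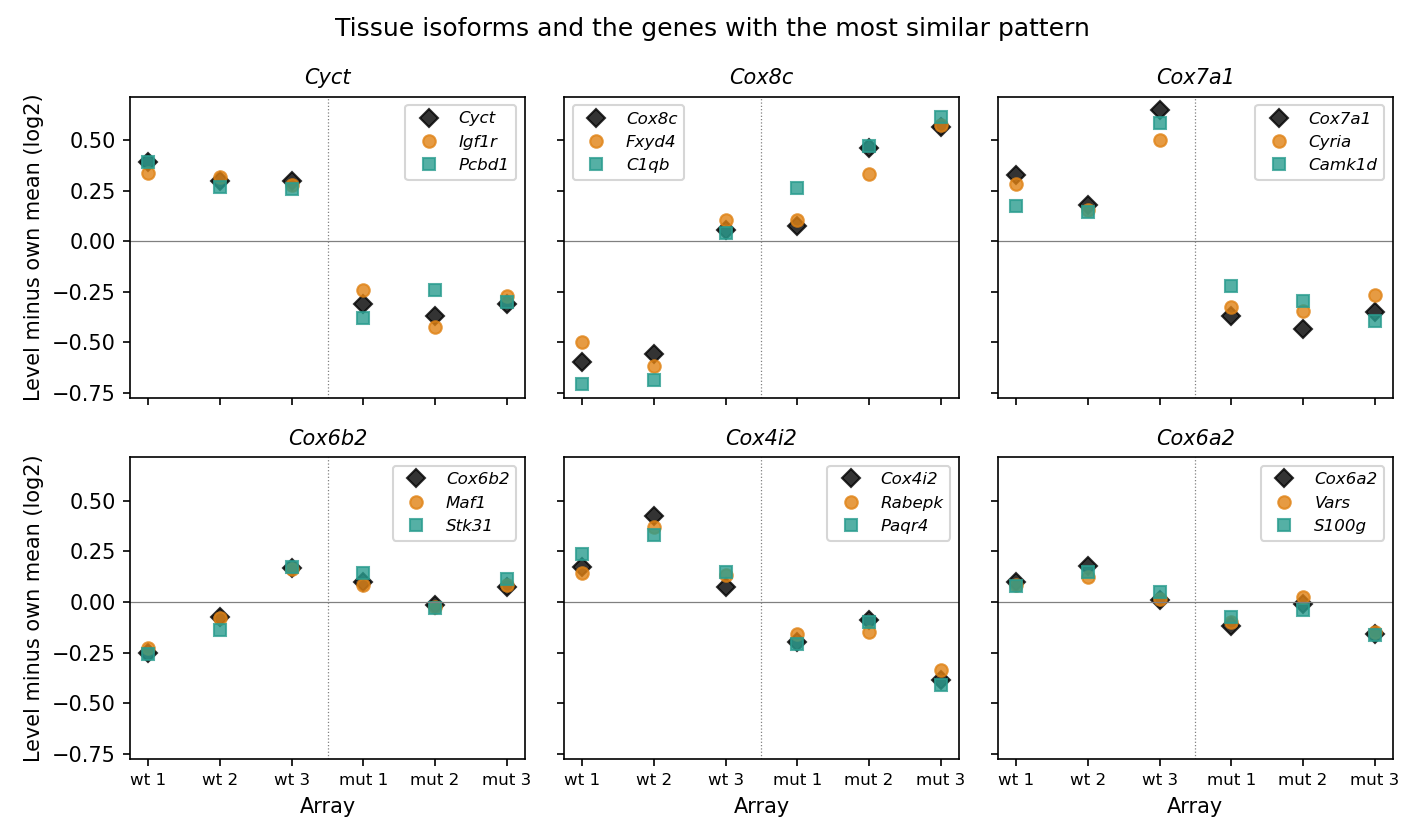
Levels minus each gene's own mean over the 6 arrays on the log2 scale (vertical axis) by array (horizontal axis, wt for wildtype and mut for mutant), with black diamonds for the tissue isoform named above each panel and coloured symbols for the 2 genes nearest to it. In the Cox8c panel, wildtype 3 lies at the level of mutant 1 for Cox8c and Fxyd4.

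Protein-coding genes that flank or overlap the 7 tissue isoforms, a set added after the data were seen, gave 0 calls by limma among 16 measured. Of these 16, 3 had an unadjusted p under 0.05 (14.7% over all probe sets). Capns1, a calpain subunit that lies next to Cox7a1, was at -0.29 (SE 0.0718; limma, adjusted p = 0.184), and Zfp146, on its other side, at 0.43 (limma, adjusted p = 0.295). The means of Zfp146, 3.96 in the wildtype and 4.39 in the mutant, were below the guide, and its groups overlapped. The remaining one of the 3 was Kmt5c, beside Cox6b2, at 0.17 (limma, adjusted p = 0.268). Itgad, whose span overlaps that of Cox6a2, was below the guide in both groups, at a difference of 0.12 (limma, adjusted p = 0.508). Beside Cyct, Rbm45 was at -0.15 and Pde11a at 0.017 (limma, adjusted p = 0.479 and 0.943). Beside Cox8c, Btbd7 was at -0.12 and Unc79 at 0.060 (limma, adjusted p = 0.612 and 0.794).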

How the data were processed

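Samples of 100 germinal vesicle stage oocytes, 3 per genotype, were measured on 1-colour Affymetrix arrays. Per the labels' protocols, the Ovation Pico WTA system amplified 1 ng of total RNA. The authors deposited log2 values, made with Affymetrix Expression Console 1.1 and RMA per the submitters' processing notes, and the sources used here name no genome build. RMA forces the arrays to a common distribution, so a change in total RNA per oocyte cannot be seen, and it compresses differences near background. The number of arrays limits precision.

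Of 35556 probe sets, 21789 had 1 gene symbol in the array annotation, 1621 several and 12146 none. All 23410 with a symbol were fitted without a filter by lmFit and eBayes of limma 3.58.1 (R 4.3.3), two-sided and without covariates, with Benjamini-Hochberg adjustment over all of them and a threshold of 0.05. Each gene was read from its brightest single-symbol probe set by mean over the 6 arrays. The procedure was tested on simulated data.

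The genes and lists were chosen with earlier results of these data known. The rule for names took all tissue isoforms and partners, up to 4 genes per list with the smallest p-values, and the 2 nearest patterns per isoform above the guide, other than predicted genes, small RNA genes and chemoreceptors. The alternatives were the replicate number as a block, a filter at the guide, 3 normalizations, trend and robust eBayes, all probe sets, the mean of a gene's probe sets and leaving out each array. The replicate numbers were not found to pair the samples. Figures were drawn with matplotlib 3.10.9.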

Additional observations from a re-analysis of the deposited data

How the results depend on the processing

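With 3 arrays per group and all values from 1 platform, the number of calls depended on the setting. Limma called 0 of the 7 partners and 0 genes of the 7 measured pathway lists in each of the 14 alternatives. Calls were rare in all of them, so 0 in such short lists says little. The count of called probe sets was 32; it was 1 with the replicate block, 1 over all probe sets of the table and 76 with trend and robust eBayes. Leaving out 1 array gave 18 (wildtype 3), 10 (mutant 3), 3 (mutant 2) or 1 (mutant 1 and each of the other wildtype arrays). Each of these fits had fewer samples, and the cause of the differing counts was not tested. Deviations from the group means correlated at -0.0015, -0.031 and 0.037 across probe sets between samples of the same replicate number, so the numbers were not taken to pair the samples. None of the 7 tissue isoforms changed sign in any alternative run. They were chosen on this contrast in these same arrays, so nothing is read from the stable signs. Among them are Cox6b2, at 0.0067 without wildtype 1, and Cox7b2, below the guide on every array. Among partners the sign changed for Cox4i1, at 0.013 after quantile normalization, 0.022 after cyclic loess and -0.062 to 0.018 without 1 array; for Cycs, at 0.0068 after cyclic loess, 0.018 as the mean of its probe sets and -0.045 to 0.0050 without 1 array; and for Cox8a, at -0.043 after median centring and -0.047 to 0.063 without 1 array. After median centring Cox6b1 was at -0.030 and Cox6a1 at -0.017. The filter at the guide removed Cox7b2, which then had no value.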
